A study of Mus musculus with 4 samples.

Results

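The clustered histone genes were taken as the genes of the count matrix whose symbol starts with Hist1h, Hist2h, Hist3h or Hist4h and that hold at least 1 UMI (unique molecular identifier, a tag that counts 1 captured RNA molecule). All 67 such genes of the 32285 listed met this rule: 6 of the linker histone H1, 18 of H2A, 18 of H2B, 12 of H3 and 13 of H4. The data came from mouse testis, profiled with a droplet single-cell kit that reads transcripts at the 3′ end. The study asked what depletion of ZNHIT1 does in germ cells, where this protein works in the SRCAP remodeller that exchanges H2A for its variant H2A.Z. It had 4 libraries, 1 each of control (CTRL) and Znhit1_KO testis at postnatal days 16 and 35. The counts used are those of the Znhit1_KO library of day 35, and the remaining 3 count sets were not used here. With 1 library no test was made, and neither genotypes nor ages are compared. The strain, the deleted part of Znhit1, what drove the deletion and the number of animals are not given in the sources used here.

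Core histones H2A, H2B, H3 and H4 form the nucleosome, and H1 binds the DNA that enters and leaves it. The clustered genes supply histones mainly during DNA replication, and most of their mRNAs end in a conserved stem-loop in place of a poly(A) tail. The stem-loop binding protein SLBP holds this end, and the U7 small nuclear ribonucleoprotein directs its cleavage. Spermatogenic cells are known for testis members of these clusters, which partly replace the somatic proteins before and during meiosis. They include the linker histones H1.1 (Hist1h1a), which is also made elsewhere, and H1t (Hist1h1t), and the core variants TH2A (Hist1h2aa) and TH2B (Hist1h2ba).

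After filtering, 7856 of 15306 barcodes were used, with 48553315 UMIs and a median of 4607 UMIs per cell. Pairs of the 4 libraries had 45 to 81 barcodes in common. Cells were grouped into 23 clusters without use of the histone genes, and clusters were named from marker genes, with "-like" for a rebuilt name. Germ-cell-like cells numbered 4250: 1495 spermatogonium-like, 1996 like spermatocytes of early meiotic prophase, 458 pachytene-spermatocyte-like and 301 with no stage name. The 301 cells, germ cluster 7 below, had marker scores of 0.771 for late spermatocyte and 0.766 for early prophase. The 9 germ clusters were numbered by their pachytene marker score minus their spermatogonium marker score, which orders markers and is not a measured time. Somatic-like cells numbered 2699, and 907 cells in 3 shallow clusters had no name. Among the spermatid markers, Prm1 held 3, Acrv1 9 and Tnp1 22 UMIs in all germ-cell-like cells, and the others are not shown. Spermatid was the second-best name of germ clusters 1 and 4, with scores of 0.623 and 0.212. Germ cluster 9 scored 3.67 for pachytene and 2.95 for late spermatocyte. Znhit1 itself had 79 UMIs among germ cells (2.48 CPM) and 238 UMIs among somatic cells (15.7 CPM). CPM is the UMIs of a gene per 1000000 UMIs of a class, so it is a share and not an amount of RNA per cell. These values do not check the knockout label, since the reads may come from a stretch of the gene that was kept. Intervals given below are 95% intervals and cover counting error only.

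Of the 67 genes, 54 lie in the cluster on chromosome 13 between 21715763 and 23934851 (mm10), 10 on chromosome 3, 2 on chromosome 11 and 1, Hist4h4, on chromosome 6. The conserved end is shown first, since a poly(A)-primed kit sees a histone mRNA through what follows it. A search of the annotated transcripts (GENCODE M21) for the histone stem-loop motif with pairing arms found it after the stop codon in 46 of 67 genes. Of the 40198 protein-coding transcripts of any gene with at least 100 annotated bases after the stop codon, 36, or 0.0896%, had the motif in the first 100. That share counts transcripts, those of the members among them, so it is not a rate among other genes. The 46 genes were counted at any distance after the stop codon. The most frequent form was found in 26 genes, the H4 form in 7 and the form of Hist1h1t in 6. In the lines below, 5′ to 3′ as DNA letters, capitals mark the stem-loop.
Hist1h1e: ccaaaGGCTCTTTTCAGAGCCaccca
Hist1h1t: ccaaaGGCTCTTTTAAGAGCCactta
Hist1h2bm: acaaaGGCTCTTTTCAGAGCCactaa
Hist1h4d: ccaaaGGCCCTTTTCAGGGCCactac

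The annotated transcript ran more than 50 bases past the stem-loop in 26 genes, Hist1h1e, Hist1h1t and Hist1h4d among them. It ended within 50 bases in 20, Hist1h2bm among them. No stem-loop was found in 21, but 16 of those have under 40 annotated bases after the stop codon, so the window could hardly show one. Hist1h2aa and Hist1h2ba have 0 annotated bases there, and Hist1h1a has 48. Hist1h2bc has 742 such bases, with the poly(A) signal AATAAA and no match to the stem-loop. The 3 classes of ends had median counts of 462, 434 and 286 UMIs per gene and overlapped widely, from 11 to 14261 UMIs in the first, 2 to 4403 in the second and 0 to 16622 in the third. How far priming sets which histone mRNAs were captured was not tested, so levels of different genes are not compared as amounts of RNA. Whether the capture of 1 gene differed between kinds of cells was not tested either. Sums over genes and shares of histone UMIs describe captured UMIs only.

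Start regions are shown for 3 linker histone genes and for the TH2A gene, because the levels of these genes take different courses along the germ clusters. RefSeq start regions (GRCm38, 250 bases before to 50 after the start) matched 61 of the 67 genes. The TATA box was searched as TATAAA on the gene's strand. On both strands, the CCAAT box was searched by the letters of its name, the H1 box as AAACACA and the octamer as ATTTGCAT. Capitals mark each match, which for a match on the opposite strand are its letters read in reverse complement. The regions are chr13:23763418-23763717 (plus strand, Hist1h1a), chr13:23695561-23695860 (plus strand, Hist1h1t), chr13:23622509-23622808 (minus strand, Hist1h1e) and chr13:23934187-23934486 (plus strand, Hist1h2aa).
Hist1h1a: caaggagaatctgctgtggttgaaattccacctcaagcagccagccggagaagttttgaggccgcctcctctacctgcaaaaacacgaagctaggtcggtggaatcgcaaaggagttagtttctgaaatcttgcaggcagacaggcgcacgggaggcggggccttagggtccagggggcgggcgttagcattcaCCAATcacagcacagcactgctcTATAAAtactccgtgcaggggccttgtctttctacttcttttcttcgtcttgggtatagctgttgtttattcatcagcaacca
Hist1h1t: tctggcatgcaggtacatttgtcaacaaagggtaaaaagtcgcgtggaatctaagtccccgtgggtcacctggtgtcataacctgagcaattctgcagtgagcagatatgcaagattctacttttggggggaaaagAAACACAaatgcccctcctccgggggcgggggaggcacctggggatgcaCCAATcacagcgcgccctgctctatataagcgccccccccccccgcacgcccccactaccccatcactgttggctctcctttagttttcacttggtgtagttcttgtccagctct
Hist1h1e: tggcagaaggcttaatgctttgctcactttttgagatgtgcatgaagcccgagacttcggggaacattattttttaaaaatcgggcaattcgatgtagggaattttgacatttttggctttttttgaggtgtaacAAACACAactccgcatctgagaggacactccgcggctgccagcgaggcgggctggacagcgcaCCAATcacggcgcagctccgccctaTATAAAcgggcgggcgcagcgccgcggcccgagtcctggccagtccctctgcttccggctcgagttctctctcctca
Hist1h2aa: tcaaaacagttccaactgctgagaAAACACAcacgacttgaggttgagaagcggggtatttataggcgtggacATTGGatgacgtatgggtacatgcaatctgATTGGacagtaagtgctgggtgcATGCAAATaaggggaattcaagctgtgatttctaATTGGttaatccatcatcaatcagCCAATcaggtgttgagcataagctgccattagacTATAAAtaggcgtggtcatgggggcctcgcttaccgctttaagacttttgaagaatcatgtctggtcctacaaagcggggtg

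TATAAA was found in 30 of 61 start regions, against 8.32% of all 32851 regions in the table. CCAAT was found in 52 of 61, against 37.4%, and in 3 of the 12 H4 regions. AAACACA was found in 9 of 61, against 7.18%, and 5 of these were among the 6 H1 genes. Hist1h1a is the H1 gene without those letters in this window. ATTTGCAT was found in 13 of 61, against 1.74%, and these were 7 of 17 H2A and 6 of 16 H2B regions. Hist1h2ba and Hist1h2aa are transcribed away from each other, with 305 bases between their annotated starts at 23934156 and 23934462 on chromosome 13. The start region of Hist1h2ba, from 23934107 to 23934406 on the minus strand, overlaps in part the region printed for Hist1h2aa, which does not reach the start of Hist1h2ba. A match describes letters and is no evidence of binding.

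The 67 genes held 126497 UMIs in the cells used, 0.261% of all UMIs. Hist1h1a (16622 UMIs), Hist1h2ba (15313), Hist1h4d (14261) and Hist1h2aa (12211) made up 46.2% of these, and 14 genes had under 100 UMIs each. Hist1h2bq had none in these cells and 1 in all barcodes. In 29 of 67 genes, over 50% of the 60-base stretches in the last 300 bases also occur in transcripts of another member. Their levels are uncertain because reads of near-identical copies cannot be assigned, and among the genes named below they are Hist1h2ab, Hist1h2ah, Hist1h2ai, Hist1h2an, Hist1h2ap, Hist1h2bj, Hist1h2bl, Hist1h2bn, Hist1h3e, Hist1h3f, Hist1h4h, Hist1h4m and Hist2h2aa1. Hist1h2ba falls just under this limit, with 49.0% of its stretches shared, most often with Hist1h2bj, so its level has a like uncertainty.

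The summed level of the histone genes was highest in germ cluster 4, an early-prophase-like cluster whose 10 leading genes include Rad21l, a meiotic cohesin subunit, and Prdm9, the enzyme that marks recombination sites. It was 1652, 3243, 4394, 8067, 3306, 2251, 1923, 2248 and 891 CPM in germ clusters 1 to 9. The interval of cluster 4 was 7984 to 8151 CPM. By class, spermatogonium-like cells had 3252 CPM (3220 to 3284), early-prophase-like cells 5269 CPM (5224 to 5315), pachytene-like cells 1577 CPM (1549 to 1605), and the sum was 973 CPM (957 to 989) in somatic-like cells. Early-prophase-like cells were thus 1.62-fold (1.60 to 1.64) above spermatogonium-like cells, and pachytene-like cells 3.34-fold (3.28 to 3.41) below early-prophase-like cells. Germ cluster 5, also early-prophase-like, was led by haemoglobin genes, and its erythroid markers summed to 639 CPM against at most 11 CPM in the other germ clusters. Their part in the result was not tested, and without cluster 5 the early-prophase-like sum was 6316 CPM.

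**Figure D1:**
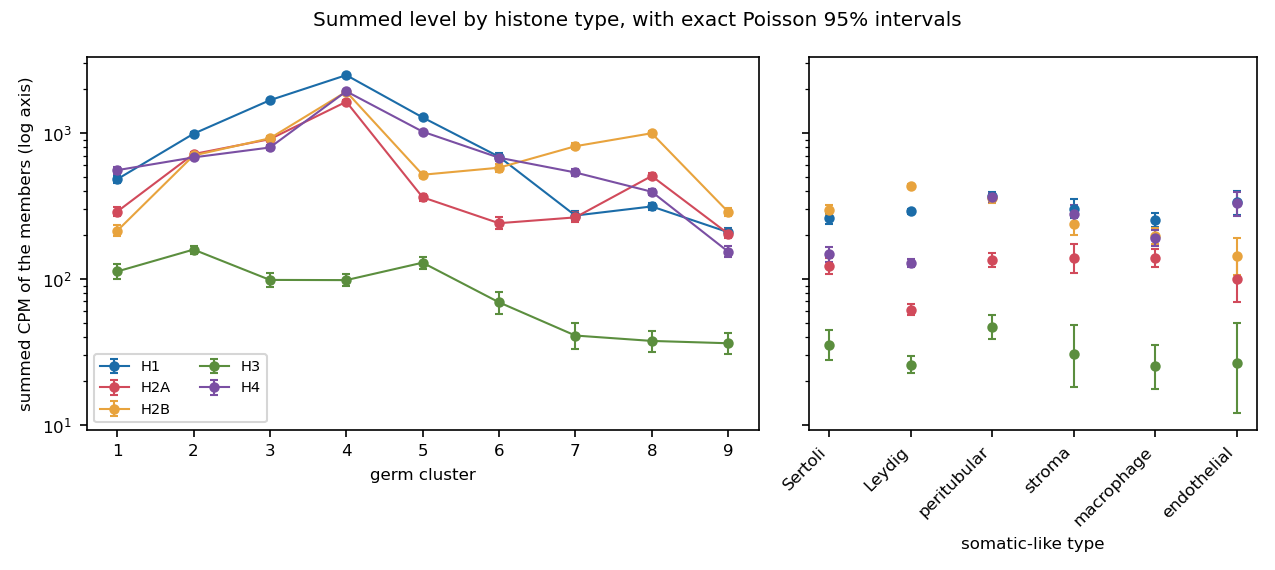
Summed CPM (log axis) of the members of each histone type in the 9 germ clusters (left) and 6 somatic-like types (right), with exact Poisson 95% intervals as bars. H1, H2A, H2B and H4 are highest in germ cluster 4, while H3 is highest in germ cluster 2 at 159 CPM.

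The 5 histone types did not share one course over the germ clusters. The H1 sum went from 482 CPM in germ cluster 1 to 2489 in cluster 4 and 209 in cluster 9. The H4 sum was 556, 1928 and 154 CPM in the same clusters, and both were highest in cluster 4. The H2A and H2B sums had a second, lower high point in cluster 8. Most of the H2A sum there was Hist1h2aa and most of the H2B sum was Hist1h2ba, testis members described below. That high point thus describes those genes and not the types as a whole. Testis members also made up much of the H1, H2A and H2B sums in cluster 4. There Hist1h2aa was at 1118 of the 1636 CPM of H2A, and Hist1h2ba at 932 of the 1916 CPM of H2B. Hist1h1a was at 1350 of the 2489 CPM of H1. Summed over all types, the other members were 1.81-fold higher in cluster 4 than in cluster 3 (1.77 to 1.86). Sums of each type without its testis members are not shown. The H2A sum was 289 CPM in cluster 1, 1636 in cluster 4, 241 in cluster 6, 507 in cluster 8 and 204 in cluster 9. The H2B sum was 213 CPM in cluster 1, 1916 in cluster 4, 517 in cluster 5, 995 in cluster 8 and 288 in cluster 9. The H3 sum was highest in cluster 2, at 159 CPM (149 to 169) against 98.0 CPM (89.0 to 108) in cluster 4. Of the 62 genes with at least 20 UMIs, 26 had their highest germ level in cluster 4, including 8 of 13 H4 genes, but 0 of 11 H3 genes did. Cluster 2 held the highest level of 10 genes and cluster 1 of 9. Cluster 9, which is pachytene-like, held the highest level of 7. The share of all genes with their highest germ level in each cluster was not counted, so these counts have no background.

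**Figure D2:**
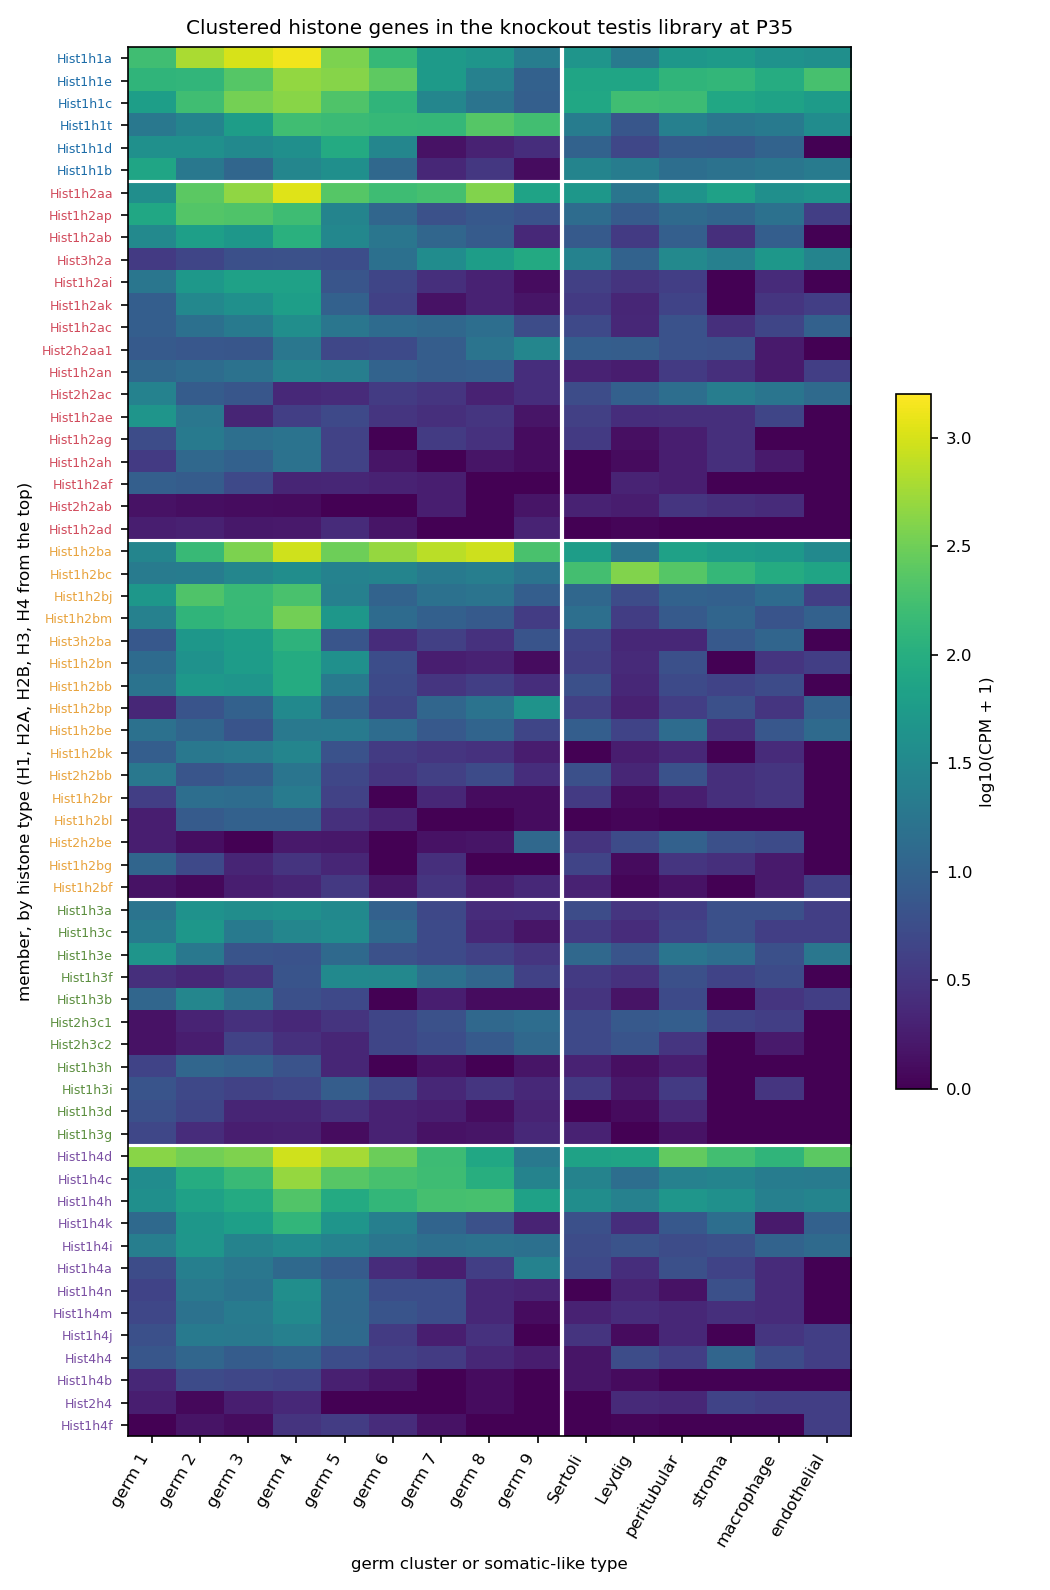
Level of each of the 62 members with at least 20 UMIs, as log10(CPM + 1), by germ cluster and somatic-like type, with rows grouped by histone type and label colour marking the type. Germ cluster 4 is the brightest germ column for 26 of the 62, Hist1h2bc is brightest in Leydig-like cells, and Hist3h2a is brightest in germ cluster 9.

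The testis members held 15%, 31.9%, 43.4%, 44.2%, 32.1%, 41.3%, 57.1%, 69.8% and 50.8% of the histone UMIs in germ clusters 1 to 9. Their share was thus highest in cluster 8, past the peak of the histone sum. Hist1h1a (chromosome 13, 23763666 to 23764406) was at 165, 614, 1010, 1350, 375, 138, 55.1, 46.2 and 21.8 CPM in germ clusters 1 to 9. Hist1h1t was at 18.4, 26.9, 58.7, 165, 149, 138, 133, 224 and 168 CPM in the same order. Hist1h1a was thus highest in cluster 4 and lowest in cluster 9, while Hist1h1t was lowest in cluster 1 and highest in cluster 8. Hist1h2aa was at 37.2, 250, 466, 1120, 228, 160, 177, 388 and 70.8 CPM. Hist1h2ba was at 27.6, 144, 373, 932, 308, 495, 734, 911 and 192 CPM. The TH2A and TH2B genes both had high points in clusters 4 and 8, but the second was 388 CPM for Hist1h2aa, well below its first, and 911 CPM for Hist1h2ba, close to its first. From cluster 8 to cluster 9, Hist1h2aa was 5.48-fold lower (4.81 to 6.27) and Hist1h2ba 4.75-fold lower (4.38 to 5.15), while Hist1h1t was 1.33-fold lower (1.20 to 1.47).

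**Figure D3:**
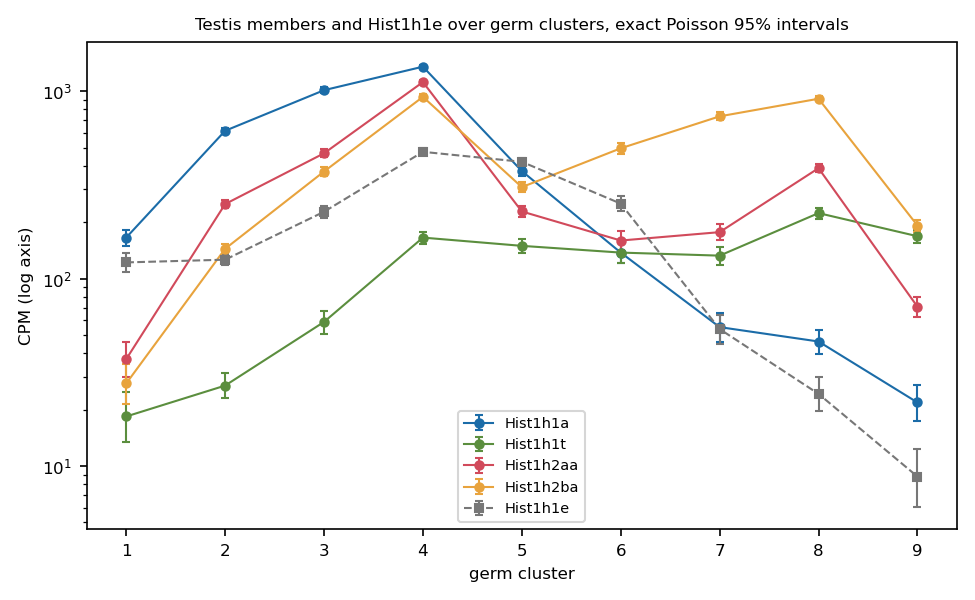
CPM (log axis) of the testis members and of the somatic linker histone gene Hist1h1e over the 9 germ clusters, with exact Poisson 95% intervals. Hist1h2ba has 2 high points, 932 CPM in cluster 4 and 911 CPM in cluster 8, while Hist1h1a goes from 1350 CPM in cluster 4 to 21.8 CPM in cluster 9.

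Between spermatogonium-like and early-prophase-like cells, the members moved in both directions. A ratio was formed for the 57 members whose UMIs in the 2 classes summed to 20 or more, and 9 of them were at least 2-fold higher in early-prophase-like cells, where 12.7% of all 15663 genes tested were. A further 11 were at least 2-fold lower, where 28.6% of all genes were. The median log2 ratio of the members was 0.24, against -0.24 over all genes tested. Hist1h1t was at 34.1 CPM in spermatogonium-like and 154 CPM in early-prophase-like cells, 4.53-fold higher (4.06 to 5.06). Hist1h2ba was 3.40-fold higher (3.24 to 3.57), from 185 to 629 CPM, and Hist1h2aa 2.31-fold higher (2.21 to 2.41), from 268 to 620 CPM. Hist1h1a differed less, at 637 and 773 CPM. With doublets kept, or with germ cluster 3 counted as early prophase, the spermatogonium-like level of Hist1h2ba was 112 CPM.

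Of the steps between neighbouring germ clusters, most genes moved at the first and the fourth. From cluster 1 to 2, 31 of 52 measured members were at least 2-fold higher and 6 lower, against 10.9% and 11.9% of all genes. From 2 to 3 the counts were 3 higher and 5 lower of 52, against 4.07% and 18.0%. From 3 to 4 they were 18 and 2 of 49, against 12.4% and 20.4%, so that fewer genes shared the step up to the peak than the first step. From 4 to 5, 4 of 48 were higher and 29 lower, against 14.7% and 9.9%. From 5 to 6, 1 of 40 was higher and 20 were lower, against 7.45% and 11.2%. From 6 to 7, 2 of 30 were higher and 10 lower, against 5.45% and 10.5%. The step from 7 to 8 was small for most, with 3 of 27 higher and 1 lower, against 11.0% and 9.05%. From 8 to 9, 4 of 30 were higher and 15 lower, against 15.8% and 10.1%.

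Members of 1 type differed from each other in this comparison. Hist1h1e, a linker histone made in most tissues, was 2.68-fold higher (2.54 to 2.83) in early-prophase-like cells, while Hist1h1b, another such linker histone, was at 27.3 CPM in spermatogonium-like and 28.3 CPM in early-prophase-like cells. Among H4 genes, Hist1h4c was 3.50-fold higher (3.27 to 3.74), from 97.9 to 342 CPM, and Hist1h4a was 2.18-fold lower (1.67 to 2.85), from 17.7 to 8.12 CPM. Hist1h4f had the largest H4 ratio, 6.56 (2.21 to 26.3), on 4 and 21 UMIs. Of the H3 genes, 5 of 11 were at least 2-fold lower, among them Hist1h3b, at 21.0 and 3.70 CPM, 5.69-fold lower (4 to 8.30). Hist1h3f was the H3 gene at least 2-fold higher, at 1.56 and 19.8 CPM, 12.7-fold higher (7.91 to 21.6). Hist2h2ac, an H2A gene on chromosome 3, was 6.5-fold lower (3.85 to 11.7), and its germ level was highest in cluster 1 at 25.5 CPM. Hist1h2ap was 2.22-fold lower (2.05 to 2.40), from 189 to 85.2 CPM, and Hist1h2bg 3.32-fold lower (1.79 to 6.64). Without germ cluster 5, the count of genes at least 2-fold higher was 14 in place of 9.

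Most members were lower in pachytene-like cells than in early-prophase-like cells. Of the 55 members measured, 41 were at least 2-fold lower, where 30.9% of all 14570 genes tested were, and 5 were at least 2-fold higher, where 20.4% of all genes were. The median log2 ratio of the members was -3.49, against -0.34 over all genes. The somatic linker histones were low in pachytene-like cells: Hist1h1e was at 412 and 16.6 CPM, 24.8-fold lower (20.8 to 29.8), and Hist1h1c at 293 and 12.3 CPM, 23.9-fold lower (19.5 to 29.7). Hist1h1d was 40.7-fold lower (22.0 to 85.4). Hist1h1a was 22.7-fold lower (20 to 25.7). Hist1h1t was the exception among the 6 H1 genes, at 154 and 196 CPM, 1.27-fold higher (1.18 to 1.37).

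**Figure D4:**
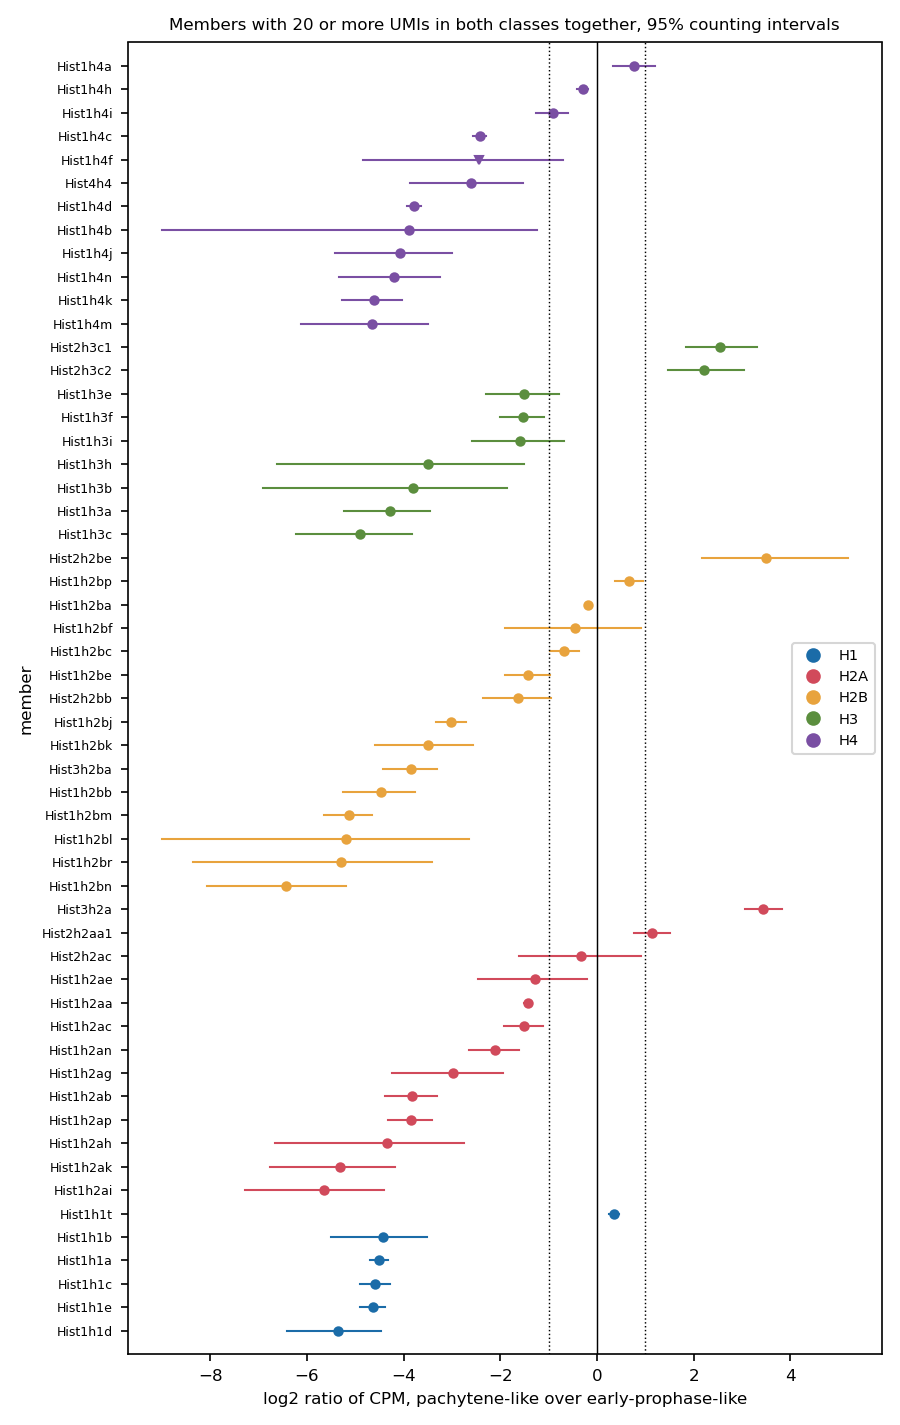
The log2 ratio of CPM, pachytene-like over early-prophase-like, for the 55 measured members with 95% counting intervals (the longest intervals are clipped at the edge of the axis), sorted within each histone type. Dotted lines mark 2-fold, the triangle marks a gene with 0 pachytene-like UMIs set to 3 counts, and 5 members lie at or beyond 2-fold higher.

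The core histone genes of the chromosome 13 cluster with the lowest ratios were Hist1h2bn, at 56.7 and 0.659 CPM (86.1-fold lower, 36.7 to 266), and Hist1h2ai, at 33.1 and 0.659 CPM (50.2-fold lower, 21.3 to 156). In H3 and H4 the lowest ratios were those of Hist1h3c (29.7-fold lower, 14.2 to 74.7) and Hist1h4m (25.1-fold lower, 11.3 to 69.2). Of the H3 genes with most UMIs, Hist1h3a was at 30.5 and 1.58 CPM and Hist1h3e at 7.50 and 2.63 CPM. Hist1h4d, the H4 gene with most UMIs, was at 688 and 50.1 CPM, 13.7-fold lower (12.4 to 15.3). Hist1h4f, with 0 UMIs in pachytene-like cells, was at least 5.46-fold lower. Hist1h4h changed little by comparison, at 155 and 126 CPM, 1.23-fold lower (1.13 to 1.33). Hist1h2ba was 1.13-fold lower (1.09 to 1.18) and Hist1h2aa 2.68-fold lower (2.54 to 2.83). When each cell was given equal weight, Hist1h2ba was higher in pachytene-like cells, at 741 CPM against 681 CPM.

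All 5 members that were at least 2-fold higher in pachytene-like cells lie outside the chromosome 13 cluster. Hist3h2a, an H2A gene on chromosome 11, was at 6.78 and 73.1 CPM, 10.8-fold higher (8.34 to 14.1). Along the germ clusters it was at 2.51, 3.61, 4.99, 5.18, 4.73, 14.1, 34.9, 59.5 and 87.0 CPM, so that it was highest where the sum of the members was lowest. Hist2h2be was at 0.514 and 5.80 CPM, 11.3-fold higher (4.49 to 36.5), on 5 and 44 UMIs. Hist2h3c1 was 5.83-fold higher (3.57 to 10.0). Hist2h3c2 and Hist2h2aa1 were the other two. Hist3h2ba, the H2B gene on chromosome 11, did not share this course, at 115 CPM in cluster 4 and 5.86 CPM in cluster 9. On chromosome 13 the largest H4 ratio was that of Hist1h4a, at 8.12 and 13.8 CPM (1.70-fold higher, 1.26 to 2.31).

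Neighbouring H2A and H2B genes with starts at most 500 bases apart and opposite strands formed 12 pairs, of which 9 had at least 100 UMIs in both genes. In 5 of the 9 pairs, both genes had their highest germ level in the same cluster. Pairs were not set against genes that are not neighbours, and 26 of the 62 members had their highest germ level in cluster 4. Hist1h2ac and Hist1h2bc both had their highest germ level in cluster 4. Hist1h2an and Hist1h2bp, 242 bases apart, did not: Hist1h2an was highest in cluster 4 at 26.1 CPM, and Hist1h2bp in cluster 9 at 43.1 CPM, where Hist1h2an was at 1.60 CPM. Hist2h2ac and Hist2h2be, 238 bases apart on chromosome 3, were highest in clusters 1 and 9.

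In germ-cell-like against somatic-like cells, 48 of 62 measured members were at least 2-fold higher, where 38.6% of all 18417 genes tested were. A total of 5 were at least 2-fold lower, where 25.8% of all genes were. The median log2 ratio was 2.65, against 0.49 over all genes. Hist1h1a had 492 CPM among germ cells and 31.7 CPM among somatic cells, 15.5-fold higher (14.2 to 17.1). The largest H2A, H3 and H4 ratios were 14.9 for Hist1h2ah (6.73 to 41.2), 9.85 for Hist1h3c (6.98 to 14.3) and 13.3 for Hist1h4j (7.70 to 25.3). Hist1h2bl had a ratio of 60.5 with an interval from 10.7, on 127 UMIs and 1 UMI. Hist1h2bj (13.7-fold higher, 11.3 to 16.8) and Hist1h2ab (9.18-fold higher, 7.18 to 11.9) were high in germ cells too.

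Other members had a high level in some somatic-like type or were higher in somatic-like cells. Hist1h2bc is an H2B gene whose annotated end, with a poly(A) signal and no stem-loop, is shared by other H2B genes. It had 24.2 CPM among germ cells and 295 CPM among somatic cells, 12.2-fold lower in germ cells (11.3 to 13.2). It was at 396 CPM in Leydig-like, 228 CPM in peritubular-myoid-like or pericyte-like, 175 CPM in Sertoli-like, 135 CPM in interstitial-stroma-like, 92.2 CPM in macrophage-like and 73.4 CPM in endothelial-like cells. The interval of the Leydig-like level, 383 to 410 CPM, did not overlap those of the other types of more than 15 cells. Hist1h2ac, its neighbour 250 bases away, was at 2.77 CPM in somatic-like and 25.5 CPM in early-prophase-like cells. Hist1h1c had 168 CPM among germ cells and 137 CPM among somatic cells and was highest among somatic types in Leydig-like cells at 164 CPM, followed by peritubular-myoid-like cells at 154 CPM, whose intervals overlapped. Hist1h1b was at 19.5 and 20 CPM. Hist1h4d was at 267 CPM in peritubular-myoid-like or pericyte-like and 249 CPM in endothelial-like cells, and Hist1h1e at 185 CPM in endothelial-like cells. Both were higher in germ cluster 4, at 938 and 474 CPM. Barcodes of under 1000 UMIs, described below, held them at 310 and 161 CPM. Hist3h2a was at 48.3 CPM in macrophage-like cells. The other members at least 2-fold lower in germ cells were Hist2h2ab, Hist2h2ac, Hist2h2be and Hist2h4, all on chromosome 3. Hist2h2ab (3.97-fold lower, 1.67 to 10.1) held 9 germ and 17 somatic UMIs, and Hist2h4 (3.55-fold lower, 1.71 to 7.68) held 13 and 22. With at least 50 UMIs asked of a gene, 3 in place of 5 members were at least 2-fold lower.

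The testis members were low in somatic-like cells. Hist1h1a, Hist1h1t, Hist1h2aa and Hist1h2ba were at 31.7, 13.2, 29.4 and 34.8 CPM there. These low levels moved with the cell filter: Hist1h1a was at 53.7 CPM and Hist1h2aa at 45.1 CPM with a lower filter, and at 54.3 and 46.4 CPM with doublets kept. With equal weight for each cell Hist1h2ba was at 55.9 CPM. Barcodes of under 1000 UMIs, a view of free RNA that may include shallow cells, held them at 224, 133, 267 and 492 CPM. The somatic-like types other than lymphocytes were at 3.23% to 26.5% of those levels. Hist1h2bc differed, with 396 CPM in Leydig-like cells against 166 CPM in these barcodes. Free RNA was not subtracted, and its part in the low somatic levels of the testis members was not tested.

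Per cell, depth differed between classes, with median UMIs of 7025 in spermatogonium-like, 4376 in early-prophase-like, 13246 in pachytene-like and 4136 in somatic-like cells. After thinning each cell to 1000 UMIs, Hist1h1t was seen in 3.68% of spermatogonium-like (2.78 to 4.76), 14.5% of early-prophase-like (13 to 16.1) and 20.1% of pachytene-like cells (16.5 to 24.1), and in 1.78% of somatic-like cells (1.31 to 2.35, Clopper-Pearson intervals). Without thinning these shares were 20.3%, 47.7%, 81.2% and 6.67%. Hist1h1a was seen in 45.2% of early-prophase-like and 3.71% of pachytene-like thinned cells, against 3.26% of somatic-like cells, and the intervals of the last 2 shares overlapped (2.18 to 5.88 and 2.62 to 4). Hist1h2ba was seen in 41.5% and 45.2% of the same germ classes and in 4.96% of somatic-like cells. Any member was seen in 94.9% of thinned early-prophase-like cells.

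Thinned cells of germ cluster 4 held a median of 8 histone UMIs, with quartiles of 5 and 12, and the 95th percentile was 19. Clusters 2 and 3 had medians of 2 and upper quartiles of 6 and 7, so that cells of these clusters differed widely. Clusters 6, 7 and 8 had medians of 2 and upper quartiles of 3.

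**Figure D5:**
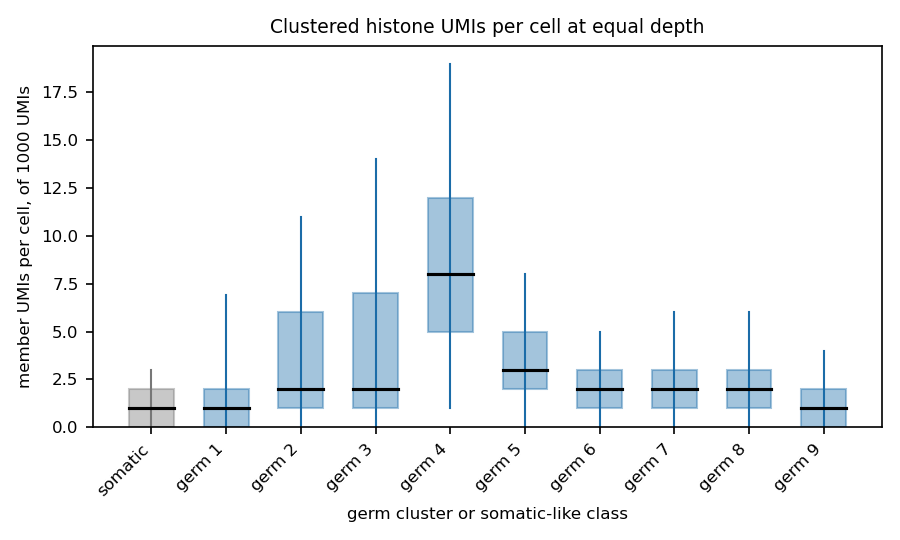
Histone UMIs per cell after thinning to 1000 UMIs, in somatic-like cells and the 9 germ clusters. Boxes run between quartiles, the black line is the median and the thin line runs from the 5th to the 95th percentile, and germ cluster 4 has the highest median, 8.

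A list of 22 S phase genes followed the histone sum over the germ clusters in part. It summed to 1761, 2366, 1860, 2230, 1577, 649, 568, 812 and 835 CPM in clusters 1 to 9, so that it was highest in cluster 2 and next highest in cluster 4, where the histone sum was highest. The list and the histone sum differed in direction from cluster 2 to 3, where the list was lower and the histone sum higher. From 8 to 9 the histone sum was 2.52-fold lower (2.42 to 2.63). The list was at 812 and 835 CPM there, a ratio of 1.03 whose interval (0.978 to 1.08) gives no direction. In pachytene-like against early-prophase-like cells, 17 of its 22 genes were at least 2-fold lower and 1, Mcm7, a subunit of the replicative helicase, was at least 2-fold higher, against 30.9% and 20.4% of all genes. Their median log2 ratio was -2.20, against -0.34 over all genes.

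The genes that transcribe, process and deliver these histones were given by a list of 25. In early-prophase-like against spermatogonium-like cells, 2 were at least 2-fold higher and 2 lower, against 12.7% and 28.6% of all genes. Zfp473, a zinc finger protein of U7 processing, was at 1.56 and 11.0 CPM, and Lsm10, a U7 ring subunit, at 61.1 and 13.5 CPM. In pachytene-like against early-prophase-like cells 11 of 25 were at least 2-fold lower and 2 higher, against 30.9% and 20.4% of all genes. Their median log2 ratio was -0.70, against -0.34 over all genes. Npat, which activates histone genes, was at 133 and 27.8 CPM, and its partner Casp8ap2 at 271 and 56.1 CPM. Slbp, the stem-loop binding protein, was at 290, 366 and 436 CPM in the 3 germ classes in that order, against 62.5 CPM in somatic-like cells, and so did not share the course of the histone sum. Nasp, a histone chaperone, was at 844, 1280, 786 and 113 CPM in these classes. In germ-cell-like against somatic-like cells, 19 of 25 were at least 2-fold higher, against 38.6% of all genes, and Rbbp7 was at least 2-fold lower, against 25.8%, at 171 and 798 CPM.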

How the data were processed

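The deposited counts are whole UMI numbers per gene and barcode, not normalised, made with Cell Ranger 7.1.0, STAR and build mm10, per the submitters' processing notes. The rule for calling barcodes was not stated there. A barcode counted as a cell with 500 genes, 1000 UMIs and no more than 10% mitochondrial UMIs (8121 barcodes), less 265 Scrublet doublets. Clustering in scanpy 1.11.5 used 3000 variable genes, 30 components, 15 neighbours and Leiden resolution 1 (leidenalg 0.10.2), without 1964 X-linked, Y-linked, mitochondrial and list genes. Names went by the mean z score of marker genes, with a score of 0.5 or more, a lead of 0.25 or more over the next name and 3 markers at 2-fold. Neighbouring germ stages needed no lead, and their near ties were decided by markers among the 10 leading genes. Shallow clusters stayed unnamed. The naming rule was written with the clusters in view. By it, germ cluster 3, scoring 0.598 for spermatogonium and 0.671 for early prophase, became spermatogonium-like.

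UMIs were summed per class and expressed as CPM, with exact Poisson intervals for levels and conditional binomial ones for ratios. A ratio needed 20 UMIs over its classes, and 0 was set to 3 counts. These steps were tested on simulated data. Free RNA was not subtracted. The naming rule for genes took the testis members, per type the 3 genes with most UMIs, and per comparison and type the largest and smallest ratio. Hist1h2ac, Hist1h2an, Hist1h2bp, Hist1h2bm, Hist2h2aa1, Hist2h3c2, Hist3h2ba, Hist1h2bq, Hist4h4 and genes from the lists were picked with their values known. The members and lists were chosen with earlier results of these data known. Alternatives were other cell filters, doublets kept, resolution 2, list genes used for clustering, fewer variable genes, equal weight for each cell, other UMI minimums, Hist1h1a left out of the sum, and thinning.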

Additional observations from a re-analysis of the deposited data

Results flagged for a closer look

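Histone UMIs were also present in data outside the named classes, above the limit that a count of 0 allows. The 3 unnamed clusters of shallow cells held the members at 2281 CPM (652 cells), 5764 CPM (130 cells) and 2080 CPM (125 cells). The cluster of 130 cells had erythroid markers at 3622 CPM, and its 10 leading genes were 4 haemoglobin genes, the spermatogonial genes Sohlh1 and Crabp1, the members Hist1h2bj and Hist1h4d, Bex1 and C77080. The source of its histone UMIs was not tested. Barcodes of under 1000 UMIs held the members at 2982 CPM.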

How the results depend on the processing

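No paired analysis was possible because each group has 1 library, and no replicate could be left out. The order of the summed level, early-prophase-like above spermatogonium-like above pachytene-like above somatic-like, held in 13 of 13 settings, and none of the 48 summed values moved by over 1.5 times, but 29 moved by more than counting error. In early-prophase-like, spermatogonium-like and somatic-like cells the sum was 5073, 3215 and 1073 CPM with a lower cell filter (and 1521 in pachytene-like cells), 5529, 3193 and 855 CPM with 20% mitochondrial UMIs allowed, 5014, 2819 and 1078 CPM with doublets kept, 5741, 3690 and 1067 CPM with equal weight for each cell (and 1976 in pachytene-like cells), and 4496, 2615 and 941 CPM without Hist1h1a (and 1543 in pachytene-like cells). It was 5316 and 3321 CPM in the first 2 classes with fewer variable genes, 6005 and 3498 CPM with list genes used for clustering, and 3205 CPM (spermatogonium-like) and 951 CPM (somatic-like) at resolution 2. Settings that clustered anew also changed which cells a class held. With doublets kept, 866 cells were spermatogonium-like and 2673 early-prophase-like, against 1495 and 1996 in the main setting. The lower cell filter left 3740 cells unnamed, against 907. Of the settings chosen after seeing the data, germ cluster 3 as early prophase gave 5042 and 2808 CPM in the first 2 classes, leaving out germ cluster 5 gave 6316 CPM in early-prophase-like cells, and the germ cluster with no stage gave 4624 CPM counted as early prophase and 1658 CPM counted as pachytene. Of 78 counts past 2-fold, 2 moved by over 1.5 times, and smaller changes of a count were not called moves. Without germ cluster 5, 14 in place of 9 members were higher from spermatogonium-like to early-prophase-like cells. At a minimum of 50 UMIs, 3 in place of 5 were lower in germ than somatic cells. Hist1h1t was higher in pachytene-like than early-prophase-like cells in 12 of 12 settings, and Hist1h2ba in 1 of 12. In 14 genes the count is under 100 UMIs, and their intervals are wide.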

Other observations

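Histone variants encoded outside the clusters differed in their courses over germ clusters 1 to 9. H1fx, a linker histone variant, was highest in cluster 4, as were the sums of H1, H2A, H2B and H4, at 1588 CPM against 141 CPM in cluster 1 and 271 CPM in cluster 9. H3f3a, a gene of the replacement histone H3.3, was lowest there, at 715 CPM against 1640 CPM in cluster 3 and 1842 CPM in cluster 9. H3f3b, the other H3.3 gene, was lowest in cluster 1 at 2084 CPM and next lowest in cluster 5 at 2398 CPM, and highest in cluster 8 at 6460 CPM. H2afx, the H2A.X gene, was at 116 CPM in cluster 1, 607 CPM in cluster 4 and 1322 CPM in cluster 8.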
